A study of Homo sapiens with 6 samples.

Results

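The genes of mitochondrial ribosomal proteins, named MRPL or MRPS followed by a number and in some cases a letter, were taken from RNA-seq of K562, a human leukemia cell line that shows features of red cell precursors. By this rule on the symbol alone there were 66 genes, of 16938 rows in the table of CTR and CEBPA, 14956 in the table of CTR and P30 and 16843 in the table of CEBPA and P30. Each of the 66 had a row in all 3 tables, with the same value of a group in every table. Other genes of the mitochondrial ribosome, such as MRPL46, had no row. The sets by place in the ribosome below therefore hold only genes with a row and are not complete. CTR cells carried an empty vector, CEBPA cells a Tet-inducible transgene of wild-type C/EBPα, and P30 cells a Tet-inducible transgene of p30, the shorter isoform made in leukemias with CEBPA mutations. The transgenes were carried by a PiggyBac transposon in separately made stable lines and all 3 lines received 200 ng/ml doxycycline for 48 h, and no untreated sample was sequenced. The parental cells are described as making neither isoform. For the CEBPA line the paper's western blot legend reports both the full-length protein and p30. The 2 replicates of a group were sequenced in separate runs on different instruments and were pooled by the authors into 1 FPKM (fragments per kilobase of transcript, scaled to the number of mapped fragments) per gene. There is therefore no spread between replicates, the depth behind a value is unknown from it, and the comparisons below are descriptions without error or test.

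Mitochondrial ribosomes translate the few messages of the mitochondrial genome, which encode subunits of the respiratory chain and of ATP synthase. Their RNAs come from mitochondrial DNA, whereas all their proteins are encoded in the nucleus, made in the cytosol and imported. The small subunit binds the message and decodes it, and the large subunit joins the amino acids and holds the tunnel through which the new chain leaves. Some of the proteins have counterparts in bacterial ribosomes and the others are found in mitochondria alone. In the erythroid lineage mitochondria also carry out steps of heme synthesis, and mature granulocytes are known to rely mainly on glycolysis.

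The cell type markers differed between the groups. Of 9 erythroid markers 7 had a row, and their summed level was 1802, 594.5 and 1185 FPKM in CTR, CEBPA and P30, with GATA1, the erythroid master transcription factor, at 185, 53.1 and 193 FPKM. The summed level of the 7 granulocyte markers with a row, of 9 listed, was 7.30, 10050 and 36.3 FPKM in CTR, CEBPA and P30. S100A9, a calcium-binding protein of granulocytes, gave 0.416, 4623 and 11.1 FPKM, and the sum in CEBPA came mostly from it, S100A8 with 3731 FPKM and S100A12 with 1609. Of the same list, AZU1, a granule protein, was at 2.54 FPKM in CTR cells, 4.32 FPKM in P30 cells and lower than both in CEBPA, with a change in log2(FPKM + 1) of -0.14 from CTR to CEBPA that became 0.37 once the GC content of the transcript was corrected for. CSF3R, the G-CSF receptor, had 2.91, 58.99 and 2.80 FPKM. Markers of T, B, fibroblast, endothelial and epithelial cells, 6 of 8 with a row, summed to 46.9, 28.9 and 60.8 FPKM, of which the epithelial adhesion molecule EPCAM gave 30.3, 21.9 and 42.9. No marker with a row was at 0 in any group. The part of the marker shifts in the results below was not tested.

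All 66 genes were well above the filter used here, which asks for over 1 FPKM in either of a pair of groups. In CTR they lay between 17.3 and 174 FPKM, a 10.1-fold range, with a median of 62.3, and 67.4% of all rows lay below the lowest of them. The median was 54.6 FPKM in CEBPA, with a range of 16.7 to 146, and 62.6 FPKM in P30, with a range of 16.2 to 166. FPKM is a level per length, so genes can be set side by side. The highest gene in CTR was MRPS24, the counterpart of the bacterial S3 protein at the messenger entry of the small subunit, with 174, 140 and 166 FPKM in CTR, CEBPA and P30. It was followed by MRPL40, a protein of the central protuberance, with 162, 134 and 163 FPKM. MRPL20, which binds ribosomal RNA in the large subunit, had 160, 112 and 148 FPKM. MRPL14 of the subunit interface had 137, 90.4 and 123 FPKM. MRPL12 of the stalk had 137, 75.9 and 130 FPKM. Each of these 5 was lowest in CEBPA. At the other end, MRPL44, whose fold resembles that of ribonuclease III, had 17.3, 26.2 and 18.2 FPKM in CTR, CEBPA and P30. MRPS31, a small subunit protein without a bacterial counterpart, had 18.5, 19.8 and 18.1 FPKM. MRPL50, a mitochondria-specific protein of the large subunit, had 18.8, 19.97 and 16.2 FPKM. MRPS11 of the small subunit platform had 22.3, 16.7 and 24.6 FPKM. MRPL17 near the tunnel exit had 26.0, 16.9 and 25.2 FPKM. The CEBPA value was highest for the first 3 of these and lowest for MRPS11 and MRPL17. With 1 value per group, neighbours in this order cannot be told apart.

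Summed over the 66 genes, the level was 4698, 4097 and 4619 FPKM in CTR, CEBPA and P30. These sums were 0.712%, 0.672% and 0.691% of all FPKM in the group. From CTR to CEBPA the sum decreased by 12.8%, and from CTR to P30 it decreased by 1.68%. From P30 to CEBPA it decreased by 11.3%. The total over all rows itself decreased by 7.61% from CTR to CEBPA. The order of the genes was close to the same in CTR and P30, with Pearson's r = 0.989 and Spearman's rho = 0.974 over log2(FPKM + 1) of the 66 genes, against r = 0.864 and rho = 0.824 between CTR and CEBPA. These correlations are across genes, which are not independent replicates.

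**Figure D1:**
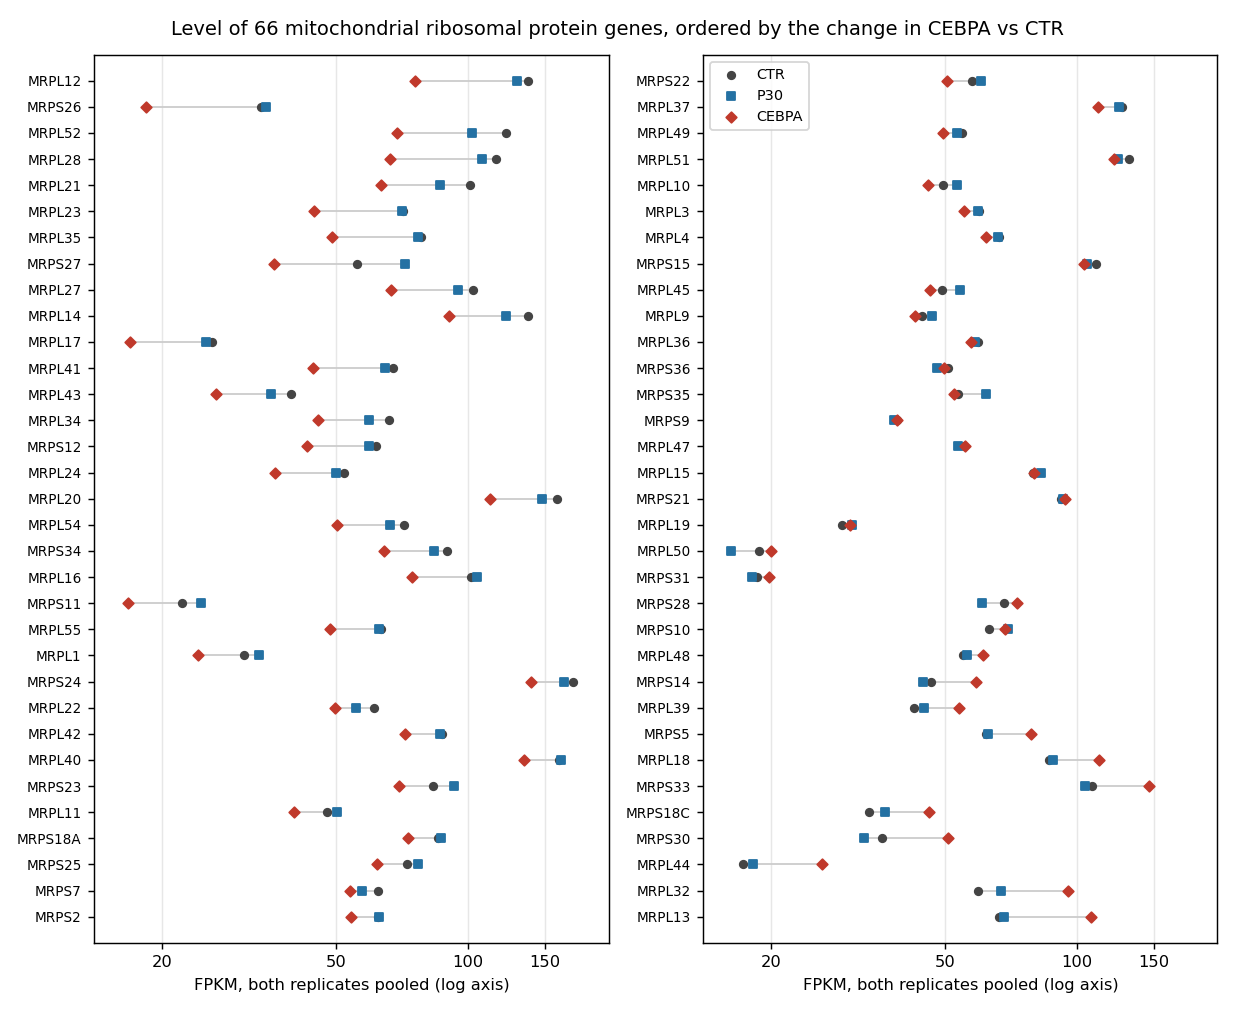
Level of each of the 66 genes in FPKM on a log axis, with 1 pooled value per group (circle CTR, square P30, diamond CEBPA), ordered by the change in CEBPA vs CTR. The P30 square lies on or near the CTR circle for most genes, and the CEBPA diamond lies to the left of CTR for 46 genes and to the right for 20.

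The comparison of CEBPA with CTR asks how the cells differ when wild-type C/EBPα is made. Changes are given as differences of log2(FPKM + 1), which at these levels are close to log2 ratios. Of the 66 genes, 46 were lower and 20 higher in CEBPA. The median change was -0.19, with quartiles of -0.50 and 0.02 and a range of -0.84 to 0.69, beside a median of -0.01 over all 13673 genes compared and of -0.11 over the 6880 genes with over 15 FPKM, a level that all 66 exceed. A gene was counted as lower when FPKM + 1 fell short by at least 20% and as higher when it was greater by at least 25%, equal steps on the log scale. By these limits 23 of the 66 genes (34.85%) were lower, beside 31.5% of all genes compared, and 10 (15.15%) were higher, beside 33.7%. Among the genes with over 15 FPKM, 36.05% were lower and 28.1% higher. At 1.5-fold, 12 of the 66 were lower and 2 higher, beside 18.6% and 24.0% of all genes. No gene of the 66 reached a 2-fold change in either direction, beside 21.0% of all genes. The spread of their changes, as the scaled median absolute deviation, was 0.41 against 0.73 for all genes compared. The share of the 66 genes at least 20% lower was thus near that of all genes, and the shares at least 25% higher and past 2-fold were below it. In a bulk sample, fewer cells with a gene and less RNA per cell cannot be told apart.

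These differences rest on the authors' scaling of the libraries. When the summed FPKM of both groups were made equal, changes moved up by about 0.11, the median of the 66 genes became -0.08, and 39 were lower and 27 higher. Changes between -0.11 and 0 therefore turn their sign with the scaling, which applied to 7 of the 66 genes.

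The lowest change belonged to MRPL12, a protein of the flexible stalk that is also known to bind the mitochondrial RNA polymerase, with 137, 75.9 and 130 FPKM in CTR, CEBPA and P30, a change of -0.84 in CEBPA vs CTR. MRPL12 lies at chr17:79670397-79674547 on the plus strand of hg19, and a gene annotated on the same strand overlaps its exons. MRPS26, a mitochondria-specific protein of the small subunit at chr20:3026698-3028896 (plus strand), followed with 33.7, 18.4 and 34.6 FPKM and a change of -0.84. MRPL52, a mitochondria-specific protein of the large subunit, had 122, 68.8 and 102 FPKM, a change of -0.82. For all 3 the CEBPA value was the lowest of the groups. MRPL28, which has a bacterial counterpart of the same number, had 116, 66.3 and 108 FPKM (-0.80). MRPL21, likewise a protein with a bacterial counterpart, had 101, 63.4 and 86.4 FPKM (-0.67). MRPL23, a protein at the tunnel exit, had 71.2, 44.6 and 70.8 FPKM (-0.66). In 5 of these 6 genes, all but MRPS26, the P30 value lay between those of CTR and CEBPA, and in MRPL23 and MRPS26 it was within 1 FPKM of CTR.

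The highest change in CEBPA vs CTR was that of MRPL13, the counterpart of a bacterial protein that joins the large subunit early in its assembly, with 66.4, 108 and 68.2 FPKM in CTR, CEBPA and P30, a change of 0.69. MRPL32, a zinc-binding protein that a mitochondrial protease has to process before it enters the ribosome, lies at chr7:42971975-42988557 (plus strand of hg19) and had 59.5, 95.3 and 67.0 FPKM, a change of 0.67. MRPL44, at chr2:224822180-224832431 (plus strand), had 17.3, 26.2 and 18.2 FPKM, a change of 0.58. MRPS30, which despite its name sits in the large subunit, had 35.9, 50.9 and 32.7 FPKM, a change of 0.49. MRPS18C, the small subunit copy among the S18 paralogs, had 33.6, 46.0 and 36.5 FPKM (0.44). MRPS33, a mitochondria-specific protein of the small subunit, had 109, 146 and 105 FPKM (0.43). All 6 were highest in CEBPA, and in 4 of them, all but MRPS30 and MRPS33, the P30 value lay above that of CTR as well.

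**Figure D2:**
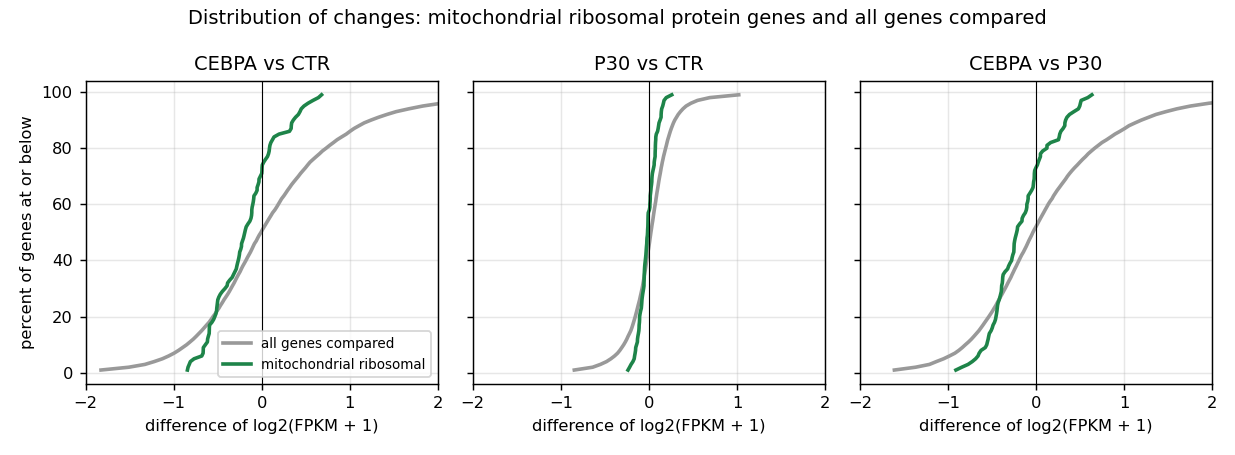
Cumulative distribution of the change, as the difference of log2(FPKM + 1), for the 66 mitochondrial ribosomal protein genes (green) and for all genes compared (grey) in each pair of groups, from the 1st to the 99th percentile, on an axis that ends at -2 and 2. The green line is steeper than the grey one in every panel, and it crosses 50% at -0.19, -0.02 and -0.22.

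P30 and CTR, compared to see what the short isoform changes by itself, differed far less. Their table shares the CTR values with the comparison above. The median change was -0.02, beside 0.02 over all 12395 genes compared, the range was -0.26 to 0.35, and the scaled median absolute deviation was 0.11 against 0.20. Lower were 38 genes and higher 28. None was at least 20% lower, beside 8.37% of all genes, and 1 was at least 25% higher, beside 8.58%. Among the 6300 genes with over 15 FPKM, the median was 0.03, with 5.05% lower and 6.25% higher. None of the 66 passed 1.5-fold, which 2.63% of all genes did downward and 2.69% upward, or 2-fold, which 1.63% did in either direction. The 1 higher gene was MRPS27, an RNA-binding protein of the small subunit with pentatricopeptide repeats at chr5:71510780-71617544 (minus strand of hg19), with 55.9, 36.1 and 71.7 FPKM in CTR, CEBPA and P30. Its change was 0.35 in P30 vs CTR and -0.62 in CEBPA vs CTR, and its CEBPA value was the lowest and its P30 value the highest of the groups.

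The next highest in P30 vs CTR were MRPS35 with 53.5, 52.4 and 62.0 FPKM in CTR, CEBPA and P30 (0.21 in P30 vs CTR), and MRPL32 (0.17). MRPS23 had 83.1, 69.5 and 93.1 FPKM (0.16). MRPS10 had 62.9, 68.7 and 69.6 FPKM (0.14), and MRPS11 changed by the same 0.14. Of these 6 highest, 5 belong to the small subunit, as do 22 of all 66 genes. The medians of large and small subunit genes in P30 vs CTR were -0.02 and 0.01. They were -0.03 and -0.02 after the GC correction described below. At the other end were MRPL52 (-0.26), MRPL21 (-0.23) and MRPL50 (-0.20). MRPS28, a small subunit protein, had 68.3, 73.1 and 60.7 FPKM (-0.17). MRPL14 (-0.16) and MRPL34 (-0.15), the latter with 66.1, 45.4 and 59.4 FPKM, completed the 6 lowest. Among these, MRPL50 and MRPS28 were lowest in P30, and the other 4 were lowest in CEBPA. How much replicates of a group differ for a gene is not known from the pooled values, so none of these differences can be set against it.

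CEBPA against P30 compares the lines with a transgene directly and shares its CEBPA and P30 values with the comparisons above. As the CEBPA line is reported to make p30 too, it is not a comparison of one isoform with the other. The 66 genes had a median change of -0.22, beside -0.04 over all 13569 genes compared and -0.14 over the 6892 genes with over 15 FPKM. Their range was -0.97 to 0.65, and their scaled median absolute deviation 0.33 against 0.67 for all genes. At least 20% lower in CEBPA were 25 (37.9%), beside 31.9% of all genes, and 9 (13.6%) were at least 25% higher, beside 31.5%. Among the genes with over 15 FPKM, 37.25% were lower and 25.2% higher. With the totals made equal the counts of the 66 genes were 14 and 12, so the split between lower and higher genes depends on the scaling. At 1.5-fold, 6 were lower, beside 17.8%, and 2 higher, beside 22.3%, and none passed 2-fold, beside 18.9%. The 6 lowest were MRPS27 (-0.97), MRPS26 (-0.88), MRPL12 (-0.77), MRPL28 (-0.70), MRPL23 (-0.65) and MRPL35 (-0.64). MRPL35, a protein of the central protuberance at chr2:86426478-86440913 (plus strand of hg19), had 78.2, 49.1 and 76.9 FPKM in CTR, CEBPA and P30. The 6 highest were MRPL13 (0.65), MRPS30 (0.62), MRPL44 (0.51), MRPL32 (0.50), MRPS33 (0.48) and MRPS14 (0.39), the last with 46.4, 58.7 and 44.6 FPKM. MRPS14 is the counterpart of a bacterial protein in the head of the small subunit.

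The GC content of the transcript went along with the change. The main annotated transcripts of the 66 genes had 34.8% to 66.7% G and C, with a median of 48.0%. Across the 66 genes, GC content and the change in CEBPA vs CTR had Pearson's r = -0.59 and Spearman's rho = -0.61, against r = -0.32 and rho = -0.42 over the 11839 genes with a known GC content. For P30 vs CTR r over the 66 genes was -0.25, and for CEBPA vs P30 it was -0.54. Over all genes with a known GC content r was -0.18 and -0.29 in the same order. All these points share the same libraries, and genes are not independent. The 6 genes lowest in CEBPA vs CTR had 51.1% to 64.8%, and the 6 highest 36.8% to 46.4%. All genes were split into 5 bins of equal size by GC content, from bin 1 with the lowest to bin 5 with the highest. All 12 of the mitochondrial ribosomal genes in bin 4 and all 11 in bin 5 were lower in CEBPA, with medians of -0.41 and -0.51, beside -0.26 and -0.47 for all genes there. In bin 1, 6 of 13 were lower, with a median of 0.00 beside 0.29 for all genes. In bin 2, 4 of 12 were lower, with a median of 0.11 beside 0.26, and in bin 3, 13 of 18, with -0.22 beside 0.05. The median of the mitochondrial ribosomal genes lay below that of all genes in each bin.

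**Figure D3:**
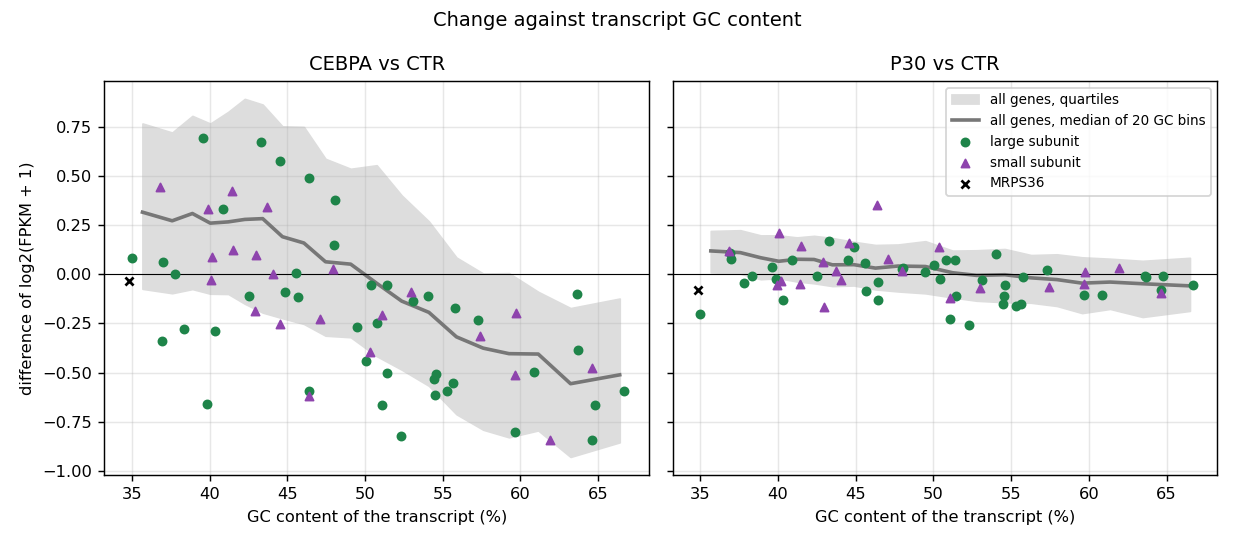
Change as the difference of log2(FPKM + 1) against the GC content of the transcript in percent, for large subunit genes (circles), small subunit genes (triangles) and MRPS36 (cross), over the median (line) and quartiles (band) of all genes in 20 GC bins. In CEBPA vs CTR the points and the line both fall from left to right, with r = -0.59 for the 66 genes. In P30 vs CTR the line falls less, from 0.12 in the bin of lowest GC content to -0.06 in that of the highest.

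After the median of all genes in the same of 20 GC bins was taken off each change, a GC correction chosen after the data had been seen, the median of the 66 genes in CEBPA vs CTR was -0.19 as before, their scaled median absolute deviation 0.32, and 20 were at least 20% lower and 5 at least 25% higher, or 30.3% and 7.58%, beside 28.9% and 31.8% of all genes under the same correction. Single genes moved more. MRPL12 went from -0.84 to -0.33, MRPS26 to -0.44 and MRPL28 to -0.40, whereas MRPL52 went from -0.82 to -0.69 and MRPS27 went from -0.62 to -0.78. MRPL35, whose transcript has only 39.9% GC, became the lowest with -0.92. MRPL13 went to 0.43, MRPL32 and MRPL44 to 0.39, and MRPS33 to 0.16. MRPL4 went from -0.10 to 0.46 and became the highest. The part of GC content in the changes was not tested further.

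By place in the ribosome, 43 of the genes encode proteins of the large subunit, MRPS30 and MRPS18A included, and 22 proteins of the small subunit. Large subunit genes had a median change of -0.25 in CEBPA vs CTR, with 18 at least 20% lower (41.9%) and 6 at least 25% higher (13.95%). Small subunit genes had a median of -0.14, with 5 lower (22.7%) and 4 higher (18.2%). Of all genes compared 31.5% were lower and 33.7% higher. With equal totals the large and small subunit medians were -0.14 and -0.027, and after the GC correction -0.23 and -0.15. The large subunit then had 14 lower (32.6%) and 5 higher (11.6%), and the small subunit 5 lower (22.7%) and none higher. Of all genes 28.9% were then lower and 31.8% higher. Outside the subunits the 1 other lower gene was MRPS36. Against P30 the medians were -0.25 and -0.15, which became -0.15 and -0.025 after the GC correction and -0.12 and -0.019 with equal totals, and between P30 and CTR -0.02 and 0.01, the latter -0.0061 with equal totals. Summed over genes, the large subunit came to 3176, 2659 and 3085 FPKM in CTR, CEBPA and P30. The small subunit came to 1471, 1388 and 1486 FPKM. No test of the difference between the subunits was possible.

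Proteins with bacterial counterparts and those specific to mitochondria were mixed in both directions. In the large subunit the 27 genes with a bacterial counterpart had a median of -0.34 in CEBPA vs CTR, and by the same limits 14 were lower and 3 higher. The 16 mitochondria-specific ones had a median of -0.15, with 4 lower and 3 higher, and the median was -0.087 after the GC correction and -0.042 with equal totals. In the small subunit the order was the other way round, with a median of 0.00 for the 13 with a counterpart, which became 0.11 with equal totals, and of -0.23 for the 9 specific ones. In P30 vs CTR the medians of the 4 classes lay between -0.03 and 0.06.

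The stalk recruits the translation factors that hydrolyse GTP. Its 4 genes with a row were all lower in CEBPA than in CTR, with a median of -0.37. Beside MRPL12, these were MRPL54 with 71.6, 50.4 and 66.4 FPKM in CTR, CEBPA and P30 (-0.50 in CEBPA vs CTR). MRPL11 had 47.8, 40.0 and 50.3 FPKM (-0.25), and MRPL10, the base of the stalk, had 49.6, 45.8 and 53.3 FPKM (-0.11). After the GC correction the median was -0.15, with MRPL10 at 0.08, MRPL54 at -0.09, MRPL11 at -0.20 and MRPL12 at -0.33, so that 3 of the 4 stayed below 0. MRPL10 and MRPL11 were highest in P30 and the other pair in CTR. The 9 genes at the tunnel exit spanned -0.66 (MRPL23) to 0.67 (MRPL32), with a median of -0.09 that became 0.02 when totals were made equal and -0.27 after the GC correction. The 7 genes of the central protuberance, which in mammals holds a transfer RNA in place of the bacterial 5S RNA, had a median of -0.27, from -0.66 for MRPL35 to 0.38 for MRPL18. That median was -0.0065 after the GC correction and -0.15 with equal totals. MRPL18 had 86.4, 112 and 88.4 FPKM in CTR, CEBPA and P30. Genes of neighbouring proteins thus lay at both ends of the range.

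The S18 paralogs take different places in the ribosome, and 2 of them had a row. MRPS18A of the large subunit had 85.6, 72.8 and 86.9 FPKM in CTR, CEBPA and P30. Its change in CEBPA vs CTR was -0.23, against the 0.44 of MRPS18C. After the GC correction the change of MRPS18A turned to 0.15 and that of MRPS18C became 0.17, so that the difference in direction was lost. MRPS36, now known as a subunit of the α-ketoglutarate dehydrogenase complex and not of the ribosome, had 50.8, 49.6 and 47.9 FPKM, with changes of -0.03 in CEBPA vs CTR (0.08 with equal totals and -0.35 after the GC correction) and -0.08 in P30 vs CTR.

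Some of the values can hold reads of other genes. Pseudogenes of their own name exist for 28 of the 66 genes, exons of 11 overlap those of a coding gene on the opposite strand, and exons of 4 those of one on the same strand, MRPS24 and MRPL12 among them. Whether the counting used the strand of the reads is not given in the sources used here. The 29 genes with none of these had a median change of -0.44 in CEBPA vs CTR and a median GC content of 52.3%, and the other 37 a median of -0.09 and 45.6%. After the GC correction both medians were -0.19. MRPL35, MRPL32, MRPS18C, MRPS33, MRPL50 and MRPS31 are among the genes with such pseudogenes, so their values are uncertain by the reads these share.

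Promoters of 59 of the 66 genes, as windows of 300 bases with 250 before and 50 after the start in RefSeq on GRCh38.p14, were searched on both strands for 6 motifs. The C/EBP palindrome TTGCGCAA was in none of the 59, beside 0.128% of 27305 promoters of all genes. The looser TTGCNNAA, which includes the palindrome, was in 5 (8.47%), beside 10.6%. CCGGAAG, a core bound by ETS factors such as GABP, was in 23 (39.0%), beside 10.7%. AAGATGGCG, a core of YY1, a zinc finger factor known to act at start sites, was in 10 (16.9%), beside 1.85%. GCGCATGCG, bound by NRF1, a regulator of nuclear genes for mitochondrial proteins, was in 3 (5.08%), beside 2.10%, and the CCAAT box in 19 (32.2%), beside 35.7%. The ETS and YY1 letters thus occurred in a larger share of these promoters than of all promoters. The latter were not limited to genes expressed as highly as the 66, and shares among such genes were not computed. Median promoter GC content was 61.0% for the 59 and 58.3% for all promoters. Genes with the ETS core had a median change of -0.26 in CEBPA vs CTR and those without it -0.15. For YY1 the medians were -0.14 with and -0.20 without.

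The promoters of 2 of the genes lowest and 2 of those highest in CEBPA vs CTR are shown to set both ends of the range side by side, 5′ to 3′ on the plus strand, the strand of all 4 genes, with matches to the motifs in capitals. They lie at chr17:81703117-81703416 (MRPL12), chr20:3045802-3046101 (MRPS26), chr7:42932126-42932425 (MRPL32) and chr2:223957213-223957512 (MRPL44) of GRCh38.p14.
MRPL12: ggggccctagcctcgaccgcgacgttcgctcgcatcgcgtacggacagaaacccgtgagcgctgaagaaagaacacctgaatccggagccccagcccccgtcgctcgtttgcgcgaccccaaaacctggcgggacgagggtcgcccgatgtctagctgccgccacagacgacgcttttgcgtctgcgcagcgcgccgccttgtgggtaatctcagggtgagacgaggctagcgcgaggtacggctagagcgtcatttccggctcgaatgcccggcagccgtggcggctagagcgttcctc
MRPS26: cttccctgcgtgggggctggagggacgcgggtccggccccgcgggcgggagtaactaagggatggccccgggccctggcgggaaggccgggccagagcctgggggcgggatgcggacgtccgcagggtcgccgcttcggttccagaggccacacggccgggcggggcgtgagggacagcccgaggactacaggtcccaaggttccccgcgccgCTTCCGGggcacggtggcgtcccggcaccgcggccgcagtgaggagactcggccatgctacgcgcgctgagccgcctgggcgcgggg
MRPL32: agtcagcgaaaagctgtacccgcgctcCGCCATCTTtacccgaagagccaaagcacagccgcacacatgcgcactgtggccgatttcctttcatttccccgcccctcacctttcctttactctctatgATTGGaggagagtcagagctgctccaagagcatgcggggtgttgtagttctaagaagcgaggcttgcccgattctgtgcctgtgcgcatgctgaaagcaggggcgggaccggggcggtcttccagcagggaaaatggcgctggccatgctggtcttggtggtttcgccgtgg
MRPL44: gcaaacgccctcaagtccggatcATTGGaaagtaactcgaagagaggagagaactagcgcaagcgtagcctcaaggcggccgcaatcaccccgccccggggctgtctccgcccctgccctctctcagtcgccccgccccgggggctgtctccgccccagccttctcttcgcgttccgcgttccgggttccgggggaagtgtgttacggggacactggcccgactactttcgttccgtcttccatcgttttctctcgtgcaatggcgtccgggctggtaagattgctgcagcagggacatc
Counted from the first base shown, MRPS26 has the ETS core, read on the other strand, at 214 to 220. MRPL32 has the YY1 core on the other strand at 28 to 36 and a CCAAT box, likewise reversed, at 129 to 133. MRPL44 has a reversed CCAAT box at 24 to 28, and MRPL12 holds none of the 6 motifs. The promoters of MRPS26 and MRPL12 have 76.7% and 65.7% G and C, those of MRPL44 and MRPL32 63.0% and 58.3%. Over the 59 genes, promoter GC content and the change had r = -0.20 and rho = -0.19, values nearer 0 than those of the transcripts.

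Genes that work with the mitochondrial ribosome were taken from lists by function. By the limits of 20% and 25%, 31.5% of all genes compared were lower and 33.7% higher in CEBPA vs CTR. After the GC correction these shares were 28.9% and 31.8%. Of 7 further proteins of the ribosome with other names, the median change in CEBPA vs CTR was -0.10, which became 0.02 with equal totals. By the same limits 1 was lower (14.3%) and 2 were higher (28.6%). After the GC correction the median was -0.062, with none lower and 1 higher (14.3%). The 23 assembly factors had a median of -0.12, with 7 lower (30.4%) and 2 higher (8.70%), and of -0.0079 with equal totals. After the GC correction their median was -0.05, with 6 lower (26.1%) and 7 higher (30.4%). TFB1M, the methyltransferase of the small ribosomal RNA, had 15.9, 33.6 and 17.1 FPKM in CTR, CEBPA and P30, a change of 1.04. The 12 translation factors had a median of 0.01, with 2 lower and 2 higher, and of -0.21 with 3 lower and 1 higher after the GC correction. For the 9 genes of mitochondrial transcription and RNA processing the median was 0.16, with 2 lower and 2 higher, and turned to -0.04 with 1 lower and 1 higher after the GC correction. TFB2M, the initiation factor of the mitochondrial RNA polymerase, had 24.0, 49.3 and 28.9 FPKM, a change of 1.01. TFB1M and TFB2M, related proteins, were just past 2-fold in CEBPA vs CTR and highest in CEBPA. After the GC correction neither was past 2-fold, with 0.76 for TFB1M and 0.74 for TFB2M. In P30 vs CTR the medians of the 4 lists lay between -0.07 and 0.04, and 1 of their genes, TFAM, which packages mitochondrial DNA, was at least 25% higher, with 58.9, 67.3 and 74.4 FPKM in CTR, CEBPA and P30. Its change of 0.33 became 0.21 after the GC correction, which is short of that limit.

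The 9 regulators of nuclear genes for mitochondrial proteins had a median of -0.24 in CEBPA vs CTR. Of them 4 were at least 20% lower (44.4%) and 1 at least 25% higher (11.1%), beside 31.5% and 33.7% of all genes. In P30 vs CTR their median was 0.03, with none past these limits, beside 8.37% lower and 8.58% higher of all genes. With equal totals the median in CEBPA vs CTR was -0.12. After the GC correction it was -0.18, and 1 was lower, MYC, and 1 higher, PPARGC1B. The change of ESRRA was then -0.24, that of HCFC1 -0.19 and that of PPRC1 -0.09. ESRRA, an orphan nuclear receptor, had 33.6, 18.9 and 34.3 FPKM in CTR, CEBPA and P30 (-0.79 in CEBPA vs CTR). HCFC1, a cofactor of GABP and other factors, had 32.2, 20.9 and 31.6 FPKM (-0.60). MYC, a factor that drives growth, had 81.8, 56.3 and 102 FPKM (-0.53). These 3 and PPRC1, a coactivator with 15.3, 10.8 and 14.9 FPKM (-0.46), were all lowest in CEBPA. YY1 had 36.9, 31.2 and 42.8 FPKM (-0.24). NRF1 had 14.6, 13.7 and 13.9 FPKM (-0.09, a sign that turns with equal totals). Of the GABP subunits, GABPA had 12.1, 15.4 and 14.4 FPKM (0.32) and GABPB1 13.2, 14.1 and 15.4 FPKM (0.09), changes that became 0.0040 and -0.18 after the GC correction. PPARGC1B, a coactivator, was low, with 2.34, 3.19 and 2.24 FPKM (0.33).

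**Figure D4:**
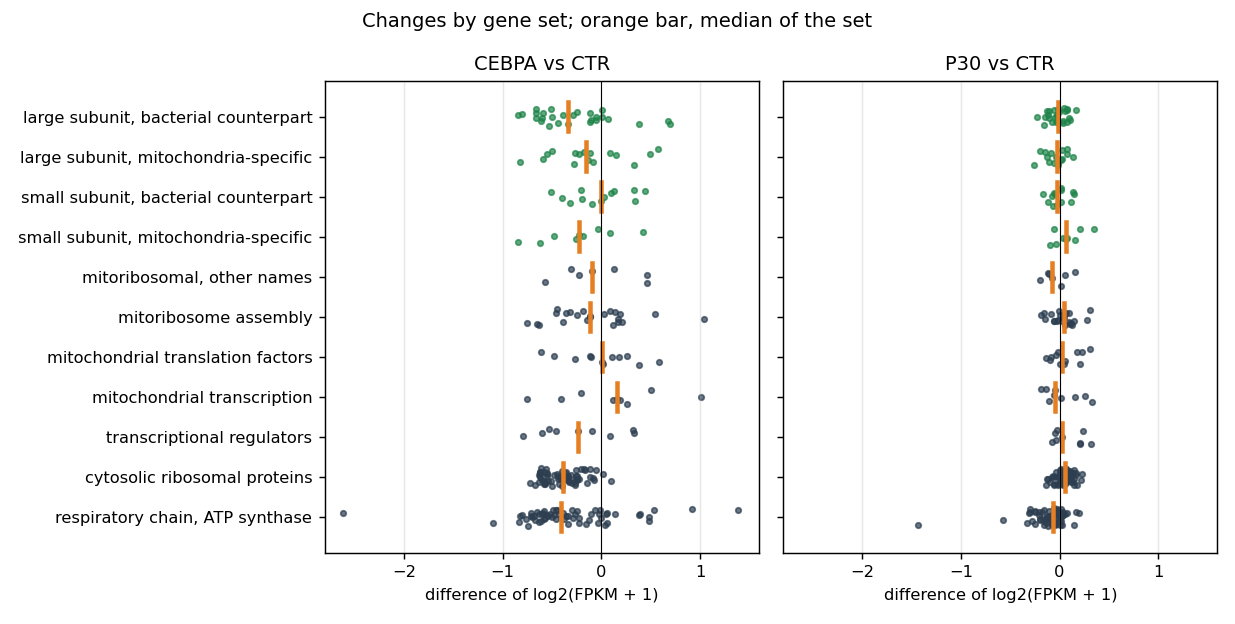
Change as the difference of log2(FPKM + 1) of each gene (dots, spread vertically to be seen) in the 4 structural classes of the 66 genes without MRPS36 (green) and in the related lists and sets (dark), with the median of each as an orange bar. In CEBPA vs CTR the bars lie between -0.41 and 0.16, and in P30 vs CTR all bars lie within 0.1 of 0.

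The sets most like the 66 genes were 66 cytosolic ribosomal protein genes and 62 nuclear genes of the respiratory chain and ATP synthase. Cytosolic ribosomal protein genes had a median change of -0.39 in CEBPA vs CTR, with 64 of 66 below 0 and a scaled median absolute deviation of 0.21. Of them 44 were at least 20% lower (66.7%) and none at least 25% higher. Respiratory chain genes had a median of -0.41, with 36 at least 20% lower (58.1%) and 7 at least 25% higher (11.3%), and a deviation of 0.38. The shares over all genes compared were 31.5% and 33.7%. The mitochondrial ribosomal genes, with -0.19 and 0.41, thus had the median nearest to 0, and with equal totals the medians were -0.08, -0.27 and -0.30 for the mitochondrial ribosomal, cytosolic ribosomal and respiratory chain genes. In P30 vs CTR the medians were -0.02, 0.05 and -0.06 in the same order. The cytosolic set made up 24.1%, 20.03% and 24.5% of all FPKM in CTR, CEBPA and P30, so the sum over all rows moves with it. These are differences between sets of genes in single pooled values, and no test of them was possible.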

How the data were processed

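RNA-seq was done on 6 samples of K562 cells, 2 replicates each of CTR, CEBPA and P30. The authors depleted ribosomal RNA, made stranded libraries and used TopHat for alignment to hg19, Cufflinks with a Gencode annotation for assembly and Cuffdiff for FPKM. The submitters' processing notes name CASAVA 1.4, TopHat2 2.0 and Cuffdiff. The 3 deposited tables hold FPKM, 1 value for each gene and group from pooled replicates, so neither replicate error nor depth can be had from them. The paper reports a range of read pairs per sample and a high correlation between replicates, but not the spread of single genes. Cuffdiff's library scaling is not given in the sources used here. All value columns were used.

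The change of a gene is its difference of log2(FPKM + 1), taken where either group had over 1 FPKM. Genes were counted at least 20% lower or 25% higher, and past 1.5- and 2-fold, on that scale. The median absolute deviation was scaled to match an SD. The computation was tested on simulated data. The members, lists and rules were chosen with earlier results of these data known. Named are, per pair, the 6 highest and 6 lowest members, the 5 highest and 5 lowest by CTR level, the stalk, the S18 paralogs, MRPS36, list genes past 2-fold, and all regulators. MRPL18, TFAM and the other genes named, markers aside, were chosen after their values were seen. Coordinates, overlaps and GC content came from a later Gencode release mapped to GRCh37 (the sequence of hg19), with 1 main transcript per gene. Promoters were RefSeq windows on GRCh38.p14, 59 of 66 matched by symbol or synonym. CEBPA and mitochondrially encoded genes were not analysed here. Alternatives were a pseudocount of 0.1, centring, no filter, filters at 5 and 15 FPKM, equal totals, rows common to all tables, a GC correction in 20 bins, and subunits by symbol. Python 3.11.15 ran scipy 1.17.1, matplotlib 3.10.9, pandas 2.3.3 and numpy 2.4.6.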

Additional observations from a re-analysis of the deposited data

How the results depend on the processing

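Of 498 alternative values for 114 results, 367 lay within 0.1 (log2), or within 1.5 times for a count, of the value reported, and 130 lay outside, 124 of them single genes. With totals made equal the median change of the 66 genes became -0.080 in CEBPA vs CTR and, for CEBPA vs P30, -0.090, and the number at least 20% lower in CEBPA vs P30 became 14, with 12 at least 25% higher. The GC correction, chosen after seeing the data, left 5 genes at least 25% higher in CEBPA vs CTR and, for CEBPA vs P30, 4, where it moved the median to -0.12. In CEBPA vs CTR 20 genes were then at least 20% lower, against 23 lower and 10 higher before. It also turned the sign of single genes, among them MRPL54 in CEBPA vs P30, from -0.39 to 0.0056. In CEBPA vs CTR signs turned in both directions, as for MRPL55 from -0.39 to 0.17 and MRPL50 from 0.08 to -0.23. Which genes were lower or higher thus depends in part on this correction. Centring on the median of all genes gave medians of -0.18 in CEBPA vs CTR, -0.04 in P30 vs CTR and -0.18 in CEBPA vs P30. No paired analysis was possible because each group has 1 pooled value per gene, and for the same reason no replicate could be left out. The limit of 0.1 is a working limit, not an error. Depth per sample is unknown from the FPKM.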

Other observations

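Many of the 66 genes lie back to back with another gene. A coding gene on the opposite strand starts within 1000 bases upstream of 21 of them (31.8%), beside 1885 of 20090 coding genes (9.38%). Of these neighbours 12 had a change in CEBPA vs CTR, and 9 of the 12 had the same sign as their mitochondrial ribosomal partner. The median change of the neighbours was -0.25, and 69.7% of the 66 genes and 50.5% of all genes compared were below 0. What share of unlinked genes would have the same sign was not computed, and a link between partners was not tested. TMEM63B, which starts 102 bases from MRPL14, had 44.5 FPKM in CTR and 24.0 in CEBPA, a change of -0.86 beside -0.60 for MRPL14. FAU, which encodes a cytosolic ribosomal protein and starts 187 bases from MRPL49, had 933 and 643 FPKM, a change of -0.54 beside -0.14 for MRPL49. MTBP, which starts 269 bases from MRPL13, the gene with the highest change, had 7.25 and 5.64 FPKM, a change of -0.31 beside 0.69. These pairs were named after their values were seen.

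Within the respiratory chain set, COX6B2, the testis form of a complex IV subunit, had 7.19 FPKM in CTR and 0.334 in CEBPA (-2.62). COX7A2L, which takes part in joining respiratory complexes, had 132 FPKM in CTR and 347 in CEBPA (1.39). COX7B, a subunit of complex IV, had 133 and 253 FPKM (0.92). NDUFA3, a subunit of complex I, had 148 and 68.5 FPKM (-1.10). These values lie outside the range of the 66 mitochondrial ribosomal genes, -0.84 to 0.69.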
